A study of Mus musculus with 2 samples.

Results

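The cholesterol genes of the ileum were examined as a set of 33 genes: 20 enzymes of sterol and isoprenoid synthesis, 4 genes that control the transcription factor SREBP2, a sterol transfer protein, a ubiquitin ligase, 2 cholesterol esterification enzymes and 5 transporters. They were chosen by gene symbol, and all 33 were present among the 22756 gene rows. The data are ribosome footprint counts, that is, sequenced mRNA pieces that a ribosome shielded from nuclease, from ileum taken at postnatal day 21 from C57BL/6 animals of wild type genotype. One library (n = 1) came from fed animals and 1 library (n = 1) from animals fasted for 48 h, and neither the number of animals behind a library nor any pooling is given in the sources used here. The design has no replicates, so no test of fasting was possible and every difference below is one between 2 libraries.

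Cells make cholesterol from acetyl-CoA through the mevalonate pathway, which ends in isoprenoids, and through squalene and a chain of sterol intermediates. SREBP2 switches the genes of this route on when the membranes of the endoplasmic reticulum are poor in sterol. SCAP carries it to the Golgi for cleavage, and INSIG proteins hold SCAP back when sterol is plentiful. Absorptive enterocytes also take up dietary and biliary cholesterol through NPC1L1, esterify part of it for chylomicrons, pump part of it back into the lumen through ABCG5/ABCG8, and export part of it through ABCA1, whose gene, like those of ABCG5 and ABCG8, is a target of the sterol-sensing LXR receptors.

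Gene-assigned footprints numbered 5558620 (fed) and 5434252 (fasted). Levels are given as TMM-scaled CPM, the count scaled to a common library total after a correction that sets the typical gene's fasted/fed ratio near 1. Values in brackets are the log2 fasted/fed ratio and its 95% exact Clopper-Pearson interval, which covers counting error only. A gene with at least 30 counts over both libraries was taken as measured, and as higher or lower when the ratio reached 1.5-fold in that direction with an interval excluding 1. Plain CPM, which divides by the gene total alone, puts the ratio of every member 0.32 lower on the log2 scale, and a direction that turns under it is named beside the result.

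Cell type markers differed between the libraries along with these genes. By the same rule 17.3% of all measured genes were higher and 17.3% lower. Of 12 enterocyte markers 9 were higher in the fasted library and 0 lower, and their summed level was 42302 (fed) and 106027 (fasted) scaled CPM. The 6 ileal markers, among them the bile acid genes Fabp6, Slc10a2 and Fgf15, were all detected, with a summed level of 10402 and 14901. Of the 6, 4 were higher and 0 lower (3 higher and 1 lower with plain CPM). Fgf15 was higher, while Slc10a2 and Fabp6 fell in neither class. Fabp6 had a log2 ratio of -0.44 and was lower with plain CPM (-0.76). Of 10 markers of cycling crypt cells 8 were lower and 0 higher, with a summed level of 2280 and 812. Smooth muscle markers (6 of 8 lower, 0 higher, summed 5457 and 3070), fibroblast markers (4 of 6 lower, 2 higher, summed 4351 and 1665) and B and plasma cell markers (6 of 6 lower, summed 817 and 374) had lower summed levels in the fasted library. T cell markers had 1 of 6 lower and 0 higher, macrophage markers 1 of 6 higher and 0 lower (1 higher and 2 lower with plain CPM), endothelial markers 3 of 6 higher and 0 lower, and neuron and glia markers 3 of 5 higher and 0 lower. Adipocyte markers had 1 of 4 measured members higher and 2 lower, with Lep at 0 in the fasted library, and the pancreatic protease gene Prss2 was at 0 in both. In footprints of bulk tissue, fewer cells of a type, less RNA per cell and fewer ribosomes per RNA cannot be told apart. The part of these markers in the results below was not tested unless a value is given.

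Sterol synthesis and sterol export went opposite ways between the libraries. No synthesis enzyme was higher in the fasted library and 8 of 18 measured ones were lower, led by Mvd (2.61-fold lower), Sqle (2.09-fold) and Hmgcs1 (1.92-fold). Of the 5 transporters 4 were higher and 0 lower, led by Abcg8 (4.35-fold higher), Abca1 (2.73-fold) and Abcg5 (2.46-fold). Over all members, 31 of 33 were measured, and 6 were higher, 9 lower and 16 fell in neither class. Among all 11333 measured genes 17.3% were higher and 17.3% lower, so by this rule the members' share of lower genes lay above the background and their share of higher genes close to it. The median log2 ratio was -0.10 over the members, -0.40 over the synthesis enzymes and 1.30 over the transporters, beside 0.0028 over all measured genes.

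With plain CPM 3 members were higher (background 8.86%) and 11 lower (background 31.2%): Mylip, Soat2 and Abcg1 no longer reached the threshold, and Acat2 and Lbr joined the lower genes. With a 2-fold threshold 3 members were higher, namely Abcg5, Abcg8 and Abca1 (background 8.25%), and 3 were lower, namely Insig1, Mvd and Sqle (background 9.13%). The members' share of lower genes was thus close to the background both with plain CPM and at 2-fold. With DESeq2 size factors and upper-quartile factors 9 members were again lower at 1.5-fold, beside 1979 and 2057 of the 11333 measured genes. These factors scale the libraries against each other almost as TMM does, so they are not a separate check of the excess. The position of each role group within all measured genes is drawn in the histogram of ratios.

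**Figure D1:**
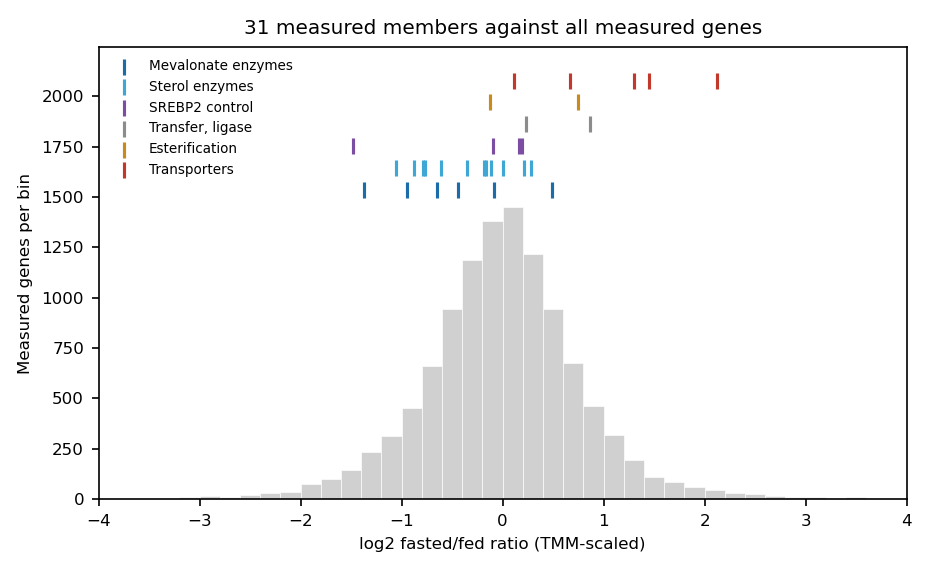
Histogram of the log2 fasted/fed ratio (x axis, TMM-scaled) over the measured genes (y axis, genes per bin), with 1 tick for each of the 31 measured members, coloured and stacked by role. The transporter ticks lie between 0.11 and 2.12, while the ticks of the mevalonate and sterol enzymes lie between -1.37 and 0.49.

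Summed over genes, the share of the whole set differed less between the libraries than the shares of its synthesis and transport genes. The 33 genes took 0.641% of gene-assigned footprints in the fed library (exact interval 0.634% to 0.647%) and 0.610% in the fasted library (0.604% to 0.617%). The direction of this small difference depends on the scaling, since the summed level was 5729 (fed) and 6823 (fasted) scaled CPM (0.25, 0.23 to 0.27). The 20 synthesis enzymes went from 0.209% (0.205% to 0.213%) to 0.112% (0.109% to 0.115%), and the 5 transporters from 0.370% (0.365% to 0.375%) to 0.441% (0.435% to 0.446%). The ratio of summed synthesis enzymes to the summed apical transporters Npc1l1, Abcg5 and Abcg8, which does not depend on library scaling, was 0.591 (fed) and 0.274 (fasted). The fasted ratio was thus 0.464 times the fed one (exact conditional 95% interval 0.447 to 0.481).

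Per kb of coding sequence, the cholesterol importer Npc1l1 had the highest level of the 33 genes in both libraries, at 662 (fed) and 715 (fasted) scaled CPM per kb. In the fed library Hmgcs1, Msmo1 and Sc5d came next, at 362, 208 and 178. In the fasted library the next places were taken by Abcg8, Abcg5 and Hmgcs1, at 491, 361 and 188. Both subunits of the sterol export pump thus overtook Hmgcs1 between the libraries. The lowest levels, under 2 scaled CPM per kb, belonged to Fdps and Idi1, for which most of the coding sequence is not unique.

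**Figure D2:**
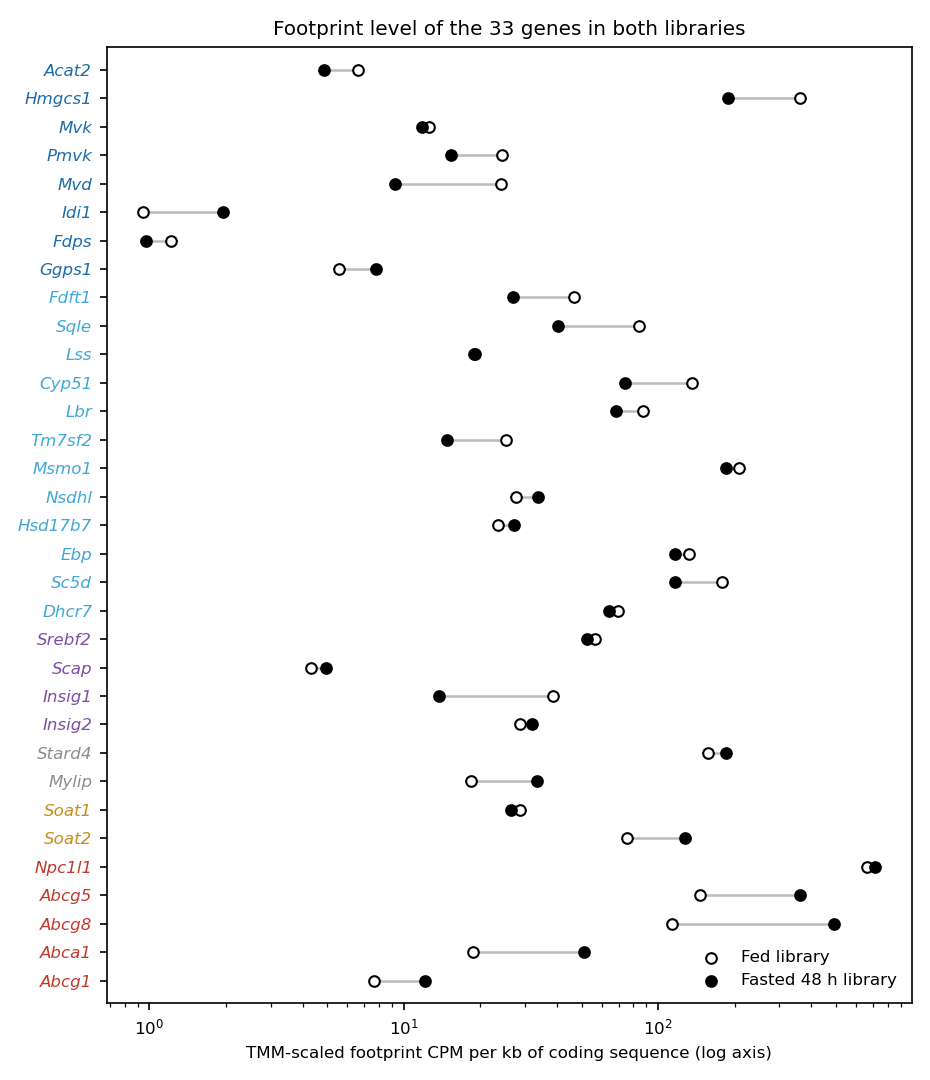
Footprint level of each of the 33 genes (rows, coloured by role) in TMM-scaled CPM per kb of coding sequence (log axis), with an open circle for the fed and a filled circle for the fasted library and n = 1 each. The filled circle lies to the right for all 5 transporters (for Npc1l1 this turns with plain CPM) and to the left for most synthesis enzymes, with Npc1l1 at the highest level in both libraries.

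Promoters from the synthesis and SREBP2 control genes are shown because the synthesis enzymes are known to share SREBP control. The sequences are from RefSeq (GRCm38.p6, the assembly of mm10), 5′ to 3′ on the gene's strand, upstream of the first annotated transcribed base. Capitals mark 2 motifs searched on both strands. The first is TCACNCCAC, a core of the SREBP binding element. The second is the NF-Y box CCAAT, which reads ATTGG when it lies on the opposite strand; NF-Y is a cofactor of SREBP. Their matches do not overlap here. Hmgcs1 was the synthesis enzyme with the most footprints, Mvd the enzyme with the lowest ratio, Insig1 the member with the lowest ratio and Lss an enzyme whose level did not differ detectably. Their windows are chr13:119690111-119690350 (plus strand), chr8:122443423-122443572 (minus strand), chr5:28071163-28071362 (plus strand) and chr10:76531438-76531587 (plus strand).
Hmgcs1: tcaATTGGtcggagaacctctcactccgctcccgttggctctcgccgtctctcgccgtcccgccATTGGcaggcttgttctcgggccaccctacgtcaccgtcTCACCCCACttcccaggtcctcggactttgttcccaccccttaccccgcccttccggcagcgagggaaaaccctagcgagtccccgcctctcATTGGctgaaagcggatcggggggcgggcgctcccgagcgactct
Mvd: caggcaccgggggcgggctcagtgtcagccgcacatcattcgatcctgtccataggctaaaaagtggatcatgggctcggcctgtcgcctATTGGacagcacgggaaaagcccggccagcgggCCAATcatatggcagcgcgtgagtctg
Insig1: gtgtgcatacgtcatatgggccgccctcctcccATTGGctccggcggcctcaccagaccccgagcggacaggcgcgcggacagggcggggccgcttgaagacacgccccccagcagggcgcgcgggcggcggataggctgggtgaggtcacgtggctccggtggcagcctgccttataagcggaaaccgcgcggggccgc
Lss: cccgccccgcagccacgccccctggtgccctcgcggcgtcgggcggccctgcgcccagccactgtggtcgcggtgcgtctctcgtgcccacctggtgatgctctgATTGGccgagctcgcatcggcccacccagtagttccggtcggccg

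A CCAAT box was a shared feature of the synthesis enzymes whether or not their footprints differed. Within windows of 250 bases before to 50 after the start, it was found for 16 of the 17 synthesis enzymes and 24 of the 27 members with a promoter entry, and for 42.7% of the 8675 measured genes with one. The SP1 box GGGCGG was found for 22 of 27 members and 68.7% of measured genes. TCACNCCAC was found for 1 member, Hmgcs1, and 1.43% of measured genes, and the direct repeat of LXR for 0 members and 0% of measured genes. A gene counted when any of its listed starts held the motif. These matches describe letters, not binding. The members without an entry were Abcg1, Fdft1, Fdps, Soat2, Sqle and Stard4.

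The early, mevalonate part of the pathway had 3 of 6 measured enzymes lower, 3 neither and 0 higher, at a median log2 ratio of -0.55. The background was 17.3% each way. With plain CPM 4 of the 6 were lower (background 31.2%). Hmgcs1 (ENSMUSG00000093930, chromosome 13, 119690379 to 119708260, plus strand, mm10), which joins acetyl-CoA and acetoacetyl-CoA into HMG-CoA, had 3511 fed and 1427 fasted counts. Its level was 565 and 294 scaled CPM (-0.94, -1.03 to -0.85). Hmgcs1 alone held 30.2% of the synthesis enzymes' footprints in the fed library and 23.5% in the fasted library. Of the 28-base windows of its coding sequence, 32.3% recur in an annotated gene that overlaps it. The strand setting of the counts is not given, so how reads of that stretch were counted is not known. Windows shared with overlapping genes also made up 84.6% of Fdps, 17.3% of Scap and 6.35% of Lss.

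Mvd (chromosome 8, 122433601 to 122443422, minus strand), mevalonate diphosphate decarboxylase, had the lowest ratio of the measured enzymes, with 180 fed and 54 fasted counts (-1.37, -1.85 to -0.94). Pmvk, the phosphomevalonate kinase one step before it, had 87 fed and 43 fasted counts (-0.65, -1.22 to -0.12), and its call did not hold with a stricter interval or a 200-count minimum. Mvk, the kinase before Pmvk, had 95 and 70 counts (-0.08, -0.55 to 0.37), a difference that its counts could not resolve. The 3 consecutive steps from mevalonate to isopentenyl diphosphate thus had footprint ratios of 0.943, 0.632 and 0.384. The intervals of neighbouring steps overlap, so a graded fall along the route was not resolved.

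The other mevalonate-route genes were thinly covered. Acat2, a cytosolic thiolase at the entry of the route, had 49 and 28 counts (-0.44, -1.18 to 0.25; lower with plain CPM, -0.76). Ggps1, which makes geranylgeranyl diphosphate, had 31 and 34 counts (0.49, -0.26 to 1.24). Idi1, the isomerase that makes dimethylallyl diphosphate, had 5 and 8 counts, and Fdps, farnesyl diphosphate synthase, had 8 and 5, both below the minimum. Windows of 28 bases of their coding sequence recurred in transcripts of genes elsewhere in the annotation for 92.0% of Fdps, 79.6% of Idi1, 79.6% of Acat2, 52.8% of Fdft1 and 49.5% of Ggps1, mostly processed pseudogenes and, for Acat2, its relative Acat3. Multiply aligned reads were left out of the gene counts, so the levels of these 5 genes cover only part of their sequence. Smaller shares recurred elsewhere for Insig1 (14.7%), Sc5d (6.55%) and Abcg1 (0.863%).

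From squalene onward 5 of 12 enzymes were lower in the fasted library, 7 neither and 0 higher, at a median log2 ratio of -0.27. The background was 17.3% each way. With plain CPM 6 of the 12 were lower (background 31.2%). The first 2 steps were both lower. Fdft1, squalene synthase, had 361 fed and 163 fasted counts (-0.79, -1.07 to -0.52). Sqle, squalene epoxidase, a known control point of the pathway, had 899 and 337 (-1.06, -1.25 to -0.88). The next enzyme, the cyclase Lss, which closes the sterol rings to give lanosterol, had 259 and 203 counts and equal scaled levels of 41.7 and 41.8 CPM (0.0047, -0.27 to 0.28; -0.32 with plain CPM).

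After lanosterol the enzymes split. Cyp51, the lanosterol demethylase, was lower, with 1274 fed and 542 fasted counts (-0.88, -1.02 to -0.73). Sc5d, the desaturase near the end of the pathway, was lower too, with 991 and 508 (-0.61, -0.77 to -0.45), a 1.52-fold difference just past the threshold. Of the other late steps, Tm7sf2 was lower and the rest did not reach the threshold. Dhcr7, the last reductase, had 617 and 445 counts (-0.12, -0.29 to 0.06), the isomerase Ebp 568 and 391 (-0.18, -0.37 to 0.005), and Msmo1, which oxidises the methyl groups at position 4, 1134 and 788 (-0.17, -0.30 to -0.04). Nsdhl and Hsd17b7, the dehydrogenase and ketoreductase of the same demethylation, stood at 187 and 178 counts (0.28, -0.02 to 0.59) and at 158 and 143 (0.21, -0.13 to 0.55). Their log2 ratios were -0.04 and -0.11 with plain CPM, so their direction depends on the scaling.

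The sterol reductase step after Cyp51 can be carried out by Lbr, which is also a receptor of the nuclear lamina, or by Tm7sf2. Tm7sf2 was lower in the fasted library, with 197 and 90 counts (-0.77, -1.15 to -0.41). Lbr, which had 5.17 times the footprints of Tm7sf2 in the fed library, had 1018 and 624 (-0.35, -0.50 to -0.20), and was lower only with plain CPM (-0.67). The Lbr/Tm7sf2 footprint ratio was 6.93 in the fasted library, 1.34 times that of the fed one (interval 1.02 to 1.78). Lss, Nsdhl, Hsd17b7 and Ggps1 were the measured enzymes with a ratio above 1, of which only Ggps1 stayed above 1 with plain CPM.

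**Figure D3:**
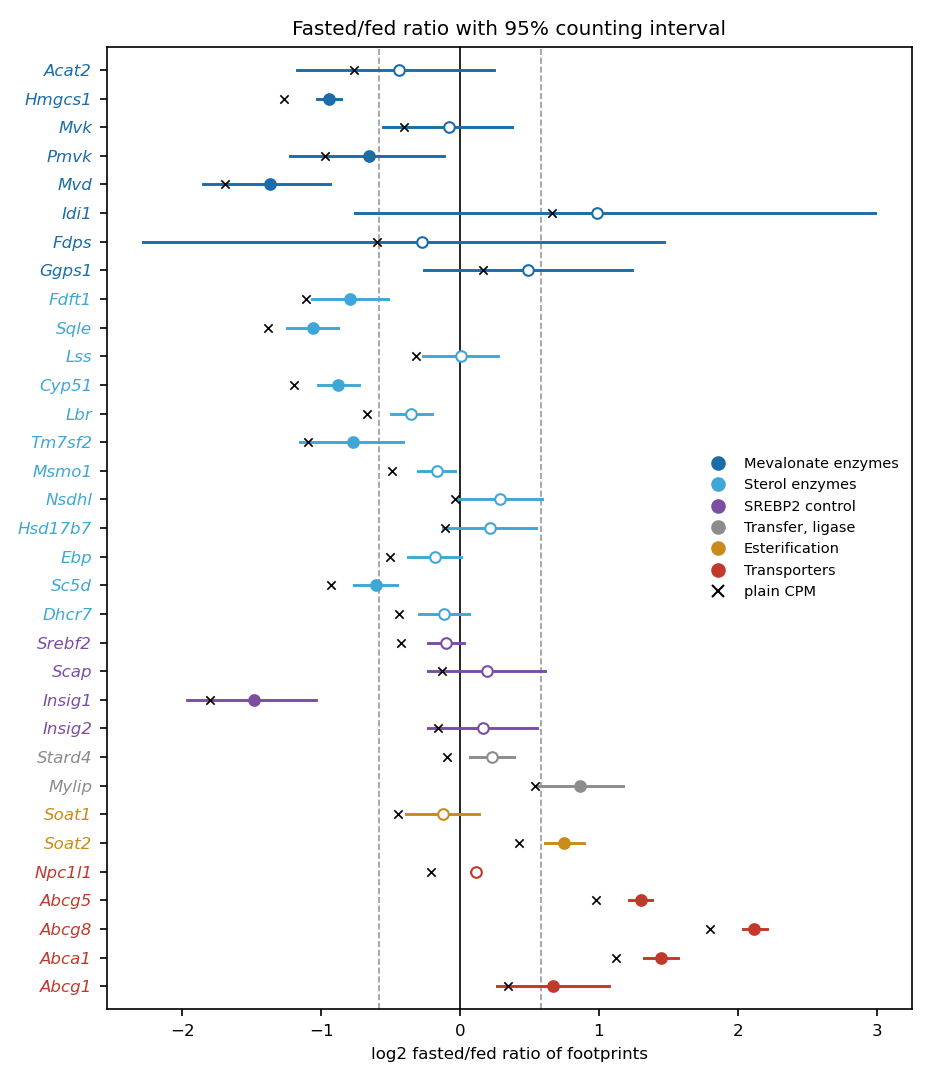
Fasted/fed log2 ratio of each member (circle, with the 95% exact counting interval as a line, coloured by role; filled where the gene was higher or lower by the 1.5-fold rule, marked by dashed lines) and its value with plain CPM (cross). The filled circles lie left of 0 among the enzymes and at Insig1, and right of 0 at Mylip, Soat2, Abcg5, Abcg8, Abca1 and Abcg1.

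Among the genes that control SREBP2, Insig1 stood apart from the other 3. Insig1 (ENSMUSG00000045294, chromosome 5, 28071363 to 28078662, plus strand), the sterol-dependent anchor of SCAP and itself a known SREBP target, had 187 fed and 52 fasted counts, or 30.1 and 10.7 scaled CPM. This was a 2.81-fold lower level (-1.48, -1.96 to -1.04), the lowest ratio of the 31 measured members, and 3.56% of all measured genes had a lower one. Its relative Insig2, which does the same task but is not known as a strong SREBP target, had 120 and 105 counts (0.16, -0.23 to 0.55; -0.16 with plain CPM). The Insig1/Insig2 footprint ratio went from 1.56 in the fed to 0.495 in the fasted library, 0.318 times the fed ratio (interval 0.208 to 0.485). The less abundant of the 2 paralogs by footprints was thus Insig2 with feeding and Insig1 with fasting. Of the Insig1 coding windows 14.7% recur in a processed pseudogene, so Insig1 may be undercounted in this order.

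The factor and its escort themselves differed little. Srebf2, which encodes SREBP2, had 1186 and 865 counts (-0.10, -0.23 to 0.03; -0.42 with plain CPM), and Scap had 103 and 92 (0.19, -0.23 to 0.61; -0.13 with plain CPM). The related Srebf1, whose product mainly drives fatty acid synthesis, had 747 and 851 counts (0.54, 0.40 to 0.69), below the threshold. The Srebf2/Srebf1 ratio in the fasted library was 0.640 times that in the fed one (interval 0.560 to 0.732). Stard4, which carries sterol between membranes, had 659 and 604 counts (0.23, 0.07 to 0.39; -0.09 with plain CPM). Mylip, the ubiquitin ligase that marks lipoprotein receptors for breakdown and is induced through LXR, was higher in the fasted library, with 152 and 216 counts (0.86, 0.56 to 1.17); with plain CPM it was 0.54 and under the threshold.

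The 2 esterification enzymes differed from each other. Soat2, the acyltransferase of absorptive enterocytes and hepatocytes, had 741 fed and 974 fasted counts, a 1.68-fold higher level (0.75, 0.61 to 0.89; 0.43 and under the threshold with plain CPM). Soat1, the form found in most cell types, had 289 and 207 (-0.13, -0.39 to 0.14). The Soat1/Soat2 ratio went from 0.390 to 0.213, and the fasted value was 0.545 times the fed one (interval 0.443 to 0.670). This within-library comparison does not depend on the scaling.

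The transporters held the highest ratios. Abcg5 and Abcg8 encode the half-transporters that pair into the apical sterol export pump. Abcg8 (ENSMUSG00000024254, plus strand) had 1418 fed and 4821 fasted counts, or 228 and 992 scaled CPM (2.12, 2.04 to 2.21), and 98.7% of measured genes had a lower ratio. Abcg5 (ENSMUSG00000040505, minus strand) had 1783 and 3434 counts, or 287 and 707 scaled CPM (1.30, 1.22 to 1.38). The Abcg5/Abcg8 footprint ratio changed order, from 1.26 in the fed to 0.712 in the fasted library, 0.566 times the fed value (interval 0.521 to 0.616).

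The 2 genes are transcribed away from each other on chromosome 17, with RefSeq starts at 84683011 for Abcg5 and 84683121 for Abcg8. The 109 bases between the starts are printed because both genes share them, on the plus strand at chr17:84683012-84683120, from RefSeq (GRCm38.p6). GENCODE also lists an Abcg8 transcript that starts inside Abcg5, and 0.778% of the Abcg5 coding windows recur there. Capitals mark TTATCT, the reverse complement of AGATAA, a box read by GATA factors, which was chosen after the sequence was seen and lies in the promoter windows of 8.01% of measured genes and 4 of 27 members.
Abcg5/Abcg8: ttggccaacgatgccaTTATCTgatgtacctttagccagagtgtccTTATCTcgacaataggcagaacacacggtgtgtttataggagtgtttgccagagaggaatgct

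Npc1l1 (chromosome 11, 6211013 to 6230143, minus strand), the apical importer that ezetimibe blocks, held 46.2% of the members' fed footprints and 41.9% of their fasted footprints. It had 16462 and 13902 counts, or 2648 and 2861 scaled CPM (0.11, 0.08 to 0.14). The direction of this small difference depends on the scaling, since the log2 ratio was -0.21 (-0.24 to -0.18) with plain CPM. On both of these scales it differed less between the libraries than the 2 apical export genes; relative to 12 summed enterocyte markers it did not.

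Abca1, which loads cholesterol onto apolipoprotein A-I at the basolateral side, had 789 fed and 1681 fasted counts, or 127 and 346 scaled CPM (1.45, 1.32 to 1.57; 1.12 with plain CPM). Abcg1, which exports sterol to lipoprotein particles mainly in macrophages and other cells, was thinly covered, with 95 and 118 counts (0.67, 0.27 to 1.07; 0.34 and under the threshold with plain CPM). The Abca1/Abcg1 ratio was 1.72 times higher in the fasted library (interval 1.28 to 2.30). Macrophage markers, the cells in which Abcg1 is best known, had summed levels of 342 and 365 scaled CPM, but 382 and 326 with plain CPM, so their direction depends on the scaling.

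**Figure D4:**
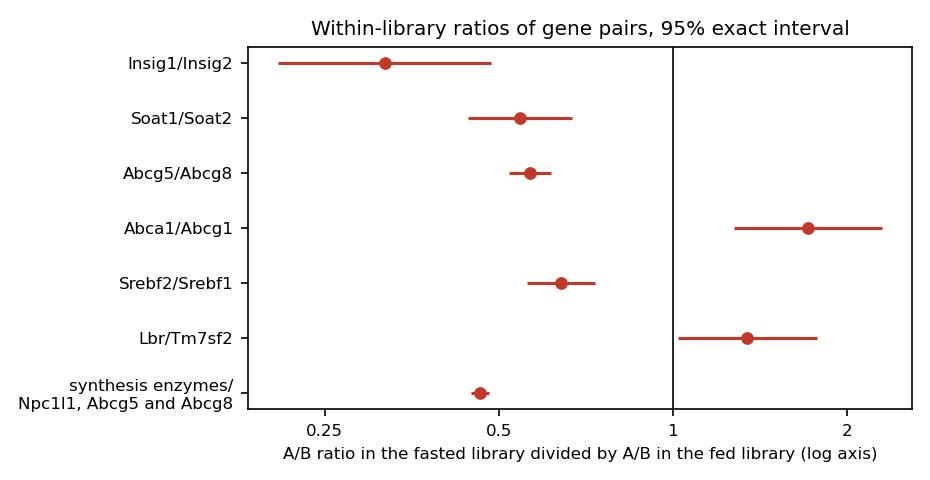
Footprint ratio of gene A to gene B within the fasted library divided by the same ratio in the fed library (log axis; point, with the exact conditional 95% interval as a line), for 6 pairs of related genes and for the summed synthesis enzymes against Npc1l1, Abcg5 and Abcg8. None of the 7 intervals reaches 1; Insig1/Insig2 is lowest at 0.318, and Abca1/Abcg1 and Lbr/Tm7sf2 lie above 1.

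Since enterocyte markers were higher in the fasted library, the members were also set against them within each library, a comparison added after the data were seen, with approximate counting intervals from the logarithm of the counts. Relative to Vil1, villin of the brush border (22303 and 27446 counts), the fasted/fed ratio was 2.76 for Abcg8 (2.60 to 2.94), 1.73 for Abca1 (1.59 to 1.89), 1.57 for Abcg5 (1.47 to 1.66) and 0.686 for Npc1l1 (0.667 to 0.706). It was 1.07 for Soat2 (0.969 to 1.18), 1.15 for Mylip (0.938 to 1.42) and 1.01 for Abcg1 (0.770 to 1.32). Relative to the 12 enterocyte markers summed, only Abcg8 of these 7 genes had an interval above 1, at 1.74 (1.64 to 1.84). On that scale Npc1l1 was at 0.431 (0.421 to 0.441), farther from 1 than either export gene, Abcg5 was at 0.983 (0.928 to 1.04) and Abca1 was at 1.09 (0.999 to 1.18). The higher footprints of Abcg5 and Abca1 were thus of about the same size as that of the marker sum. In that sum Anpep has the most counts in the fed library (74373) and Apoa1 in the fasted library (121464). The markers did not share 1 ratio, which ran from 1.15 for Anpep to 11.8 for Slc2a2. Apoa1 went from 49024 to 121464 counts and Apoa4 from 6437 to 53048. The sum can therefore not be read as a measure of enterocyte content. The summed synthesis enzymes were at 0.425 relative to Vil1 (0.410 to 0.440) and 0.267 relative to the marker sum (0.259 to 0.275).

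Other genes of sterol synthesis and SREBP processing included none that was lower, though with plain CPM 1 was lower and 1 higher (background 31.2% and 8.86%). Of 13 measured genes 3 were higher (background 17.3%) and 10 fell in neither class, with a median log2 ratio of 0.32 (-0.0013 with plain CPM). The highest ratio among these 3 belonged to Sec24d, a cargo subunit of the vesicle coat on which SCAP and SREBP leave the endoplasmic reticulum, with 1375 fed and 2352 fasted counts (1.13, 1.03 to 1.23). The cleavage proteases Mbtps1 and Mbtps2, named after their values were seen, had 168 and 112 counts (-0.23, -0.59 to 0.12) and 87 and 85 (0.32, -0.13 to 0.77; -0.00071 with plain CPM).

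Fatty acid synthesis, the neighbouring lipid route that SREBP1 drives, had lower members too. Of its 13 measured genes 6 were lower and 1 higher, at a median log2 ratio of -0.57, beside 8 of 18 lower and 0 higher at -0.40 for the sterol route and 17.3% each way for all measured genes. With plain CPM 10 were lower and 0 higher (median -0.89, background 31.2% lower), beside 10 of 18 lower for the sterol route. Whether the 2 routes differ could not be tested with 1 library a group. Its lowest ratio was that of Me1, malic enzyme, with 138 and 16 counts (-2.71, -3.60 to -2.00), and the higher gene was Mlxipl, a sugar-responsive factor (0.86, 0.65 to 1.07; 0.53 and under the threshold with plain CPM). Summed footprints of the 15 listed genes went from 0.151% to 0.0663% of the gene total, against 0.209% to 0.112% for sterol synthesis.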

How the data were processed

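For each of the 2 libraries the authors deposited a table of raw counts by gene symbol. Per the submitters' processing notes, the build was mm10 and the software named was HTSeq, STAR, cutadapt and Bowtie 1.1.2, without stated roles; the annotation and strand setting behind the counts were not found in these sources. NA was read as 0. Rows of reads assigned to no gene (55.0% of the fed and 61.1% of the fasted reads, mostly multiply aligned) stayed out of library sizes. TMM factors came from edgeR 4.0.16 (R 4.3.3); no test was run. Log2 ratios have 0.5 counts added to each count; intervals are exact (Clopper-Pearson; exact conditional for gene pairs, scipy 1.17.1). No use of molecular identifiers is known here, so intervals and the floor (3 counts, 0.483 CPM fed and 0.617 CPM fasted) cover counting error only. The counting functions were tested on simulated data. Coding lengths, positions and repeated 28-base windows come from GENCODE vM21 (GRCm38), using each gene's longest coding sequence.

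All 33 members are named, with Srebf1 and the highest and lowest called gene of each other list; exceptions are marked in the text. Members and lists were chosen with earlier results of these data known. Alternatives were plain CPM, DESeq2 1.42.0 size factors, upper-quartile factors, TMM on a reduced gene set, other count minimums (none, 200), a 2-fold threshold, a stricter interval, 2 added counts and means. A withheld item is not reported here.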

Additional observations from a re-analysis of the deposited data

How the results depend on the processing

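With 1 library a group, depth limits only the counting error: Idi1 and Fdps (13 counts each) support no direction. No paired analysis was possible because each group holds 1 library. Under DESeq2 size factors, upper-quartile factors and TMM on the reduced gene set, all 15 calls were kept. These factors scale the libraries against each other almost as TMM does, so the calls could hardly change. Plain CPM kept 12 of 15, gave 3 members higher in place of 6, and put the median log2 ratio at -0.42 over the members and -0.72 over the synthesis enzymes. A 2-fold threshold gave 3 higher and 3 lower in place of 6 and 9. Relative to the summed enterocyte markers, an alternative added after the data were seen, 4 of the higher genes had a log2 ratio below 0. It was -0.66 for Abcg1, -0.58 for Soat2 and -0.46 for Mylip, each with an interval below 0. For Abcg5 it was -0.025 with an interval of -0.11 to 0.058, which leaves no direction. The marker sum itself was higher in the fasted library by 1.33 on the log2 scale, with single markers from 0.20 to 3.56. The 200-count minimum and the stricter interval each lost 1 call, Pmvk. Other minimums, added counts and means kept the sign of both medians, which ranged from -0.11 to -0.04 over the members and from -0.48 to -0.31 over the synthesis enzymes.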

Other observations

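Among genes that move sterol inside the cell or oxidise it, Gramd1b and Cyp27a1 had higher fasted/fed ratios than any member. Of 14 measured trafficking and LXR genes 4 were higher in the fasted library and 1 lower (background 17.3% each way), at a median log2 ratio of 0.39 (0.065 with plain CPM). Gramd1b, which carries plasma membrane cholesterol to the endoplasmic reticulum, had 343 fed and 1350 fasted counts, a 5.04-fold higher level (2.33, 2.16 to 2.51; 2.01 with plain CPM). Its relative Gramd1c was the lower one, with 110 and 54 counts (-0.66, -1.17 to -0.19). The LXR genes, named after their values were seen, were Nr1h2 with 123 and 181 counts (0.91, 0.57 to 1.26) and Nr1h3 with 88 and 78 (0.18, -0.28 to 0.64; -0.14 with plain CPM).

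Of 4 measured oxysterol enzymes 1 was higher, 1 lower and 2 neither (1 higher and 2 lower with plain CPM). The background was 17.3% each way, and 8.86% higher and 31.2% lower with plain CPM. Cyp27a1, the mitochondrial sterol hydroxylase whose product can act on LXR, had 165 fed and 1380 fasted counts, a 10.7-fold higher level (3.42, 3.19 to 3.66; 3.09 with plain CPM). Cyp7b1, which hydroxylates oxysterols further, had 60 and 28 (-0.73, -1.45 to -0.07). Among 11 genes of the isoprenoid branches that leave the mevalonate route, 2 were lower, 0 higher and 9 neither, at a median of -0.10 (4 lower with plain CPM, median -0.42). Both counts of lower genes are close to the background, 17.3% and 31.2% with plain CPM. The lowest was Dhdds, a subunit of the enzyme that makes dolichol precursors, with 186 and 67 counts (-1.11, -1.54 to -0.71), and no gene of this list was higher.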
